A study of Mus musculus with 8 samples.

Results

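The genes described here are 10 members of the guanylin axis and of epithelial chloride secretion: Guca2a, Guca2b, Gucy2c, Prkg2, Cftr, Kcne3, Kcnq1, Kcnn4, Slc12a2 and Best2. They were taken by gene symbol from the platform's probe annotation, where they make up 10 of 19087 named genes and carry 13 probes. Of the 10 genes, 9 had enough values to be tested, among 17116 named genes tested. Colon RNA was measured in mdr1a-/- mice, which lack a drug efflux pump and are used as a model of inflammatory bowel disease. One group of 4 male mice ate the AIN-76A diet with 0.2% curcumin, a plant polyphenol, and the other group of 4 male mice ate AIN-76A alone. Mice of both groups carried the mdr1a deletion. The labels give an age of 7 weeks for every mouse, whereas the series text describes mice followed to 24 weeks, and the control mice alone have a strain label, Swiss mouse.

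The curcumin mice were picked for a low and the control mice for a high colonic HIS (histological injury score), so that diet and injury differ together between the groups and cannot be told apart. Each mouse had 1 two-colour array, with its own RNA in Cy3 and a reference RNA in Cy5. The sample labels call the reference colon of Swiss mice on the same diet, whereas the series text speaks of reference RNA only. The deposited values are log2 ratios without brightness, so a probe's distance from background could not be assessed and the number of arrays alone describes the precision. The direction of the ratio is not stated. Signs below assume mouse over reference, which is likely: S100a8, a neutrophil gene, was higher in the control mice picked for injury (curcumin mean -0.19 ± 0.90, control mean 2.88 ± 0.76, SD, n = 4 each, limma adjusted p = 0.00971). With the other direction every sign would turn. Apoa1, a liver gene, lay at -4.52 to -4.11 on the curcumin arrays and -4.35 to -3.86 on the control arrays, and the liver list had array medians of -2.10 to -1.82 with curcumin and -2.15 to -1.60 in controls, far below the reference on every array. These values go against a reference of colon alone, as the sample labels describe it, so it is uncertain what a level above or below the reference is set against.

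Every array had a single log ratio that 191 to 397 features held in common, against 3 to 4 features for the second most common value, and these shared log ratios were set aside. They affected 310 named genes on at least 1 array and 82 on all 8 arrays, 41 of them ribosomal protein genes. What produced them is not given. Array values correlated at 0.871 to 0.916 among curcumin mice, at 0.801 to 0.922 among control mice and at 0.747 to 0.834 between groups, across features. By the slide numbers in the labels, curcumin mice 1 and 2 belong with the 4 control mice to a close run, and curcumin mice 3 and 4 lie later, so values within the first run are given beside the main results. As a check of the tissue label, epithelial markers Epcam, Cdh1 and Cldn3 averaged 0.17, 0.16 and 0.93 in curcumin mice and -0.22, -0.16 and 0.20 in control mice, levels relative to the reference only.

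Guanylin and uroguanylin are small peptides that intestinal epithelial cells release into the lumen. They bind guanylyl cyclase C on the apical membrane, which makes cyclic GMP. Cyclic GMP acts through a membrane-bound protein kinase to open the chloride channel CFTR, and chloride and water follow into the gut. The chloride enters the cell from the blood side through a sodium-potassium-chloride cotransporter, and potassium that enters with it leaves again through basolateral potassium channels, which keeps the driving force for chloride exit.

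Upstream sequences are shown for Kcne3, the member whose values separated the diets most, and for Guca2a and Guca2b, the ligand genes, which lie next to each other on chromosome 4. They are the 250 bases before the annotated start in RefSeq (GRCm38.p6), written 5′ to 3′ on the gene's strand. Search results are given for RefSeq windows of 5 of the 10 members (Guca2a, Guca2b, Cftr, Kcnn4 and Kcne3). For Gucy2c, Prkg2, Kcnq1, Slc12a2 and Best2 no window is reported, whether or not RefSeq holds one. Capitals mark matches, on either strand, to the letters of 4 motifs. For factors of the GATA family AGATAA was searched. The core of the hepatocyte factor HNF1 was searched as GTTAAT. For the nuclear receptor HNF4 the search used AAAGTCC, and TTTATG was used for homeobox factors of the CDX family.
Guca2a, chr4:119637482-119637731 (+): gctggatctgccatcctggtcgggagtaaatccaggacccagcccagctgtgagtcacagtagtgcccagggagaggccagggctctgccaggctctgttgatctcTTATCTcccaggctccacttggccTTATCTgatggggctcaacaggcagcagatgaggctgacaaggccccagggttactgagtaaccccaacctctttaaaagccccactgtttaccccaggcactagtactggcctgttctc
Guca2b, chr4:119658946-119659195 (-): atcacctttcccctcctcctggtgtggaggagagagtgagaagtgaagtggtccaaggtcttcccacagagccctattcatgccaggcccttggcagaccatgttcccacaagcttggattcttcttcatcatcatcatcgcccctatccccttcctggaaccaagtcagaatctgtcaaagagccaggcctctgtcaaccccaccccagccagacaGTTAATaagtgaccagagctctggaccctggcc
Kcne3, first start, chr7:100176420-100176669 (+): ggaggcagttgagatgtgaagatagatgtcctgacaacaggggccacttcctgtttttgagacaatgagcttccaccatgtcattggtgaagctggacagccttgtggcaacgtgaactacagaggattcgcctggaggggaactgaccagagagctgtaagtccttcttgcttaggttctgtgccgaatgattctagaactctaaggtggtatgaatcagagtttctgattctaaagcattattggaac
Kcne3, second start, chr7:100178433-100178682 (+): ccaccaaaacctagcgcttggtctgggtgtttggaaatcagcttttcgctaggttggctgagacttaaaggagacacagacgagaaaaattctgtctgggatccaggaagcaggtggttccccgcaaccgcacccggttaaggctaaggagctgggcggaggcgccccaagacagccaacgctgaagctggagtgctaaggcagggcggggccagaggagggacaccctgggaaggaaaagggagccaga
The Guca2a window holds 2 GATA matches, at -144 to -139 and -120 to -115 from the start, both as the reverse complement TTATCT. The Guca2b window holds 1 HNF1 core match, at -33 to -28. No match of these 4 motifs lay in the windows of Kcne3, Cftr or Kcnn4, and the matches found do not overlap each other. Over all 32851 windows of this length, 9.99% hold the GATA letters, 6.43% the HNF1 core, 3.58% the HNF4 letters and 10.8% the CDX letters. A match is only a description of these letters.

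Of the 9 members tested, Kcne3 alone passed the test, with higher values in curcumin mice, and no member passed with lower values (limma, Benjamini-Hochberg adjusted p under 0.05). Over all 23814 genes and unnamed features tested, 4.54% passed, 2.0% with higher and 2.54% with lower values. That is 476 higher and 606 lower, a split that became 583 higher and 465 lower after quantile normalization between arrays. The 9 members had a median log2 fold change of 0.16, against -0.02 over everything tested. Above 0 were 7 of the 9, against 10485 of all 23814. The values of the groups did not overlap for 2 of the 9, Kcne3 and Gucy2c, whereas 12.4% of everything tested showed no overlap. By single probes, 2 of the 12 member probes tested passed, both of Kcne3, whereas 4.33% of all 33556 probes tested did.

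**Figure D1:**
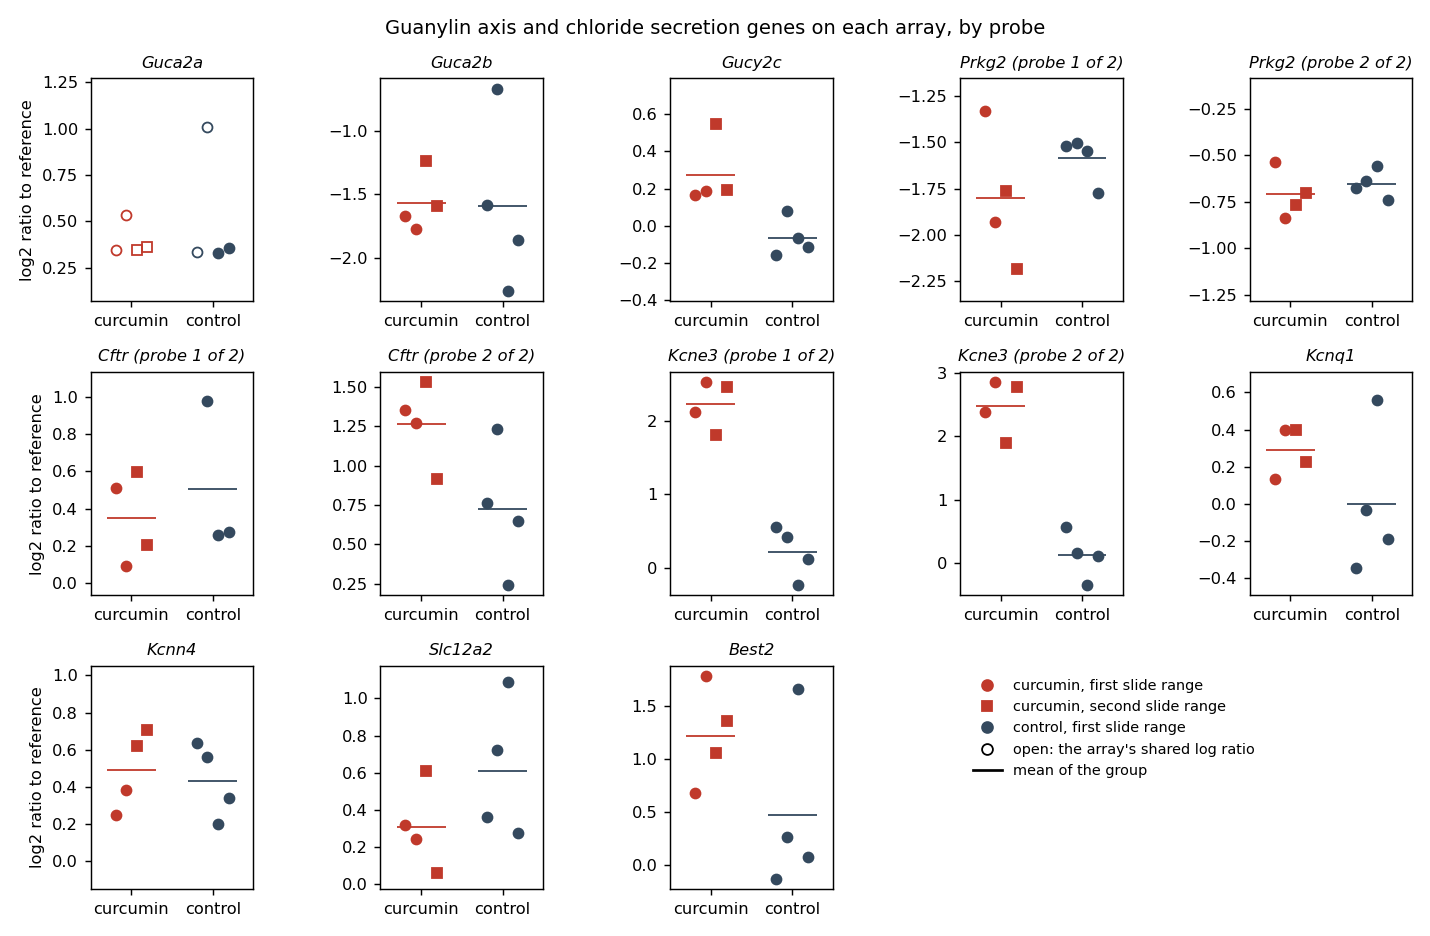
Each panel plots the log2 ratio to the reference (vertical axis) of 1 probe on the 4 curcumin arrays (red, left) and the 4 control arrays (blue, right), with lines at group means, squares for the later slide numbers and open symbols for shared log ratios. Both Kcne3 probes lie at 1.81 or above on the curcumin arrays and at 0.56 or below on the control arrays, whereas all 4 curcumin values of Guca2a are shared log ratios.

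Guca2a encodes guanylin, the main ligand of the axis in colon, and its single probe could not be tested. It held the array's shared log ratio on all 4 curcumin arrays (0.34, 0.53, 0.35 and 0.36) and on control arrays 1 and 2 (0.33 and 1.01). Its own values remained on control arrays 3 and 4 only, at 0.33 and 0.36. No measurement of a diet difference was therefore left for this gene. With the shared values kept, the log2 fold change was -0.11 (SE 0.15, limma adjusted p = 0.771).

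Guca2b encodes uroguanylin, which is better known from the small intestine. Log2 ratios of Guca2b were -1.67, -1.77, -1.24 and -1.59 in curcumin mice, against -1.58, -0.67, -2.26 and -1.86 in control mice. Every mouse was below the reference, the control mice spread wider, and the curcumin values lay inside the control range. The estimated log2 fold change was 0.02 (SE 0.30, limma adjusted p = 0.978), with a 95% interval of -0.64 to 0.69. Its sign changed with the set of arrays: within the first run of slides it was -0.13 (SE 0.39, limma adjusted p = 0.941).

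Gucy2c encodes guanylyl cyclase C, the receptor of both ligands. Its log2 ratios were 0.16, 0.19, 0.55 and 0.19 in curcumin mice, against -0.16, 0.08, -0.07 and -0.11 in control mice. All curcumin values were above all control values, with curcumin mouse 3 the highest by a wide margin and the other curcumin mice close together. The log2 fold change of 0.34 (SE 0.10, 95% interval 0.10 to 0.57) had an unadjusted limma p of 0.00974 and an adjusted p of 0.112, so it did not pass. Within the first run of slides it was 0.24 (SE 0.10, limma adjusted p = 0.379).

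Prkg2 encodes the membrane-bound cyclic GMP-dependent kinase that phosphorylates CFTR in intestinal epithelium. The mean of its 2 probes was -0.93, -1.38, -1.27 and -1.44 in curcumin mice, against -1.10, -1.07, -1.05 and -1.26 in control mice. The groups overlapped and every mouse lay below the reference. The log2 fold change was -0.14 (SE 0.12, limma adjusted p = 0.613, 95% interval -0.40 to 0.13), and the probes gave -0.21 and -0.06.

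Cftr encodes the apical chloride channel on which cyclic GMP and cyclic AMP signals converge. The mean of its probes was 0.93, 0.68, 1.06 and 0.56 in curcumin mice, against 0.76, 1.11, 0.25 and 0.46 in control mice. The ranges overlapped, and the value of control mouse 1 rests on 1 probe because the other has no value there. For the gene, the log2 fold change was 0.16 (SE 0.19, limma adjusted p = 0.718, 95% interval -0.26 to 0.58). The 2 Cftr probes had estimates of opposite sign, -0.15 (SE 0.20, limma adjusted p = 0.772) and 0.54 (SE 0.20, limma adjusted p = 0.194), so the probes disagree in direction and neither passed.

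**Figure D2:**
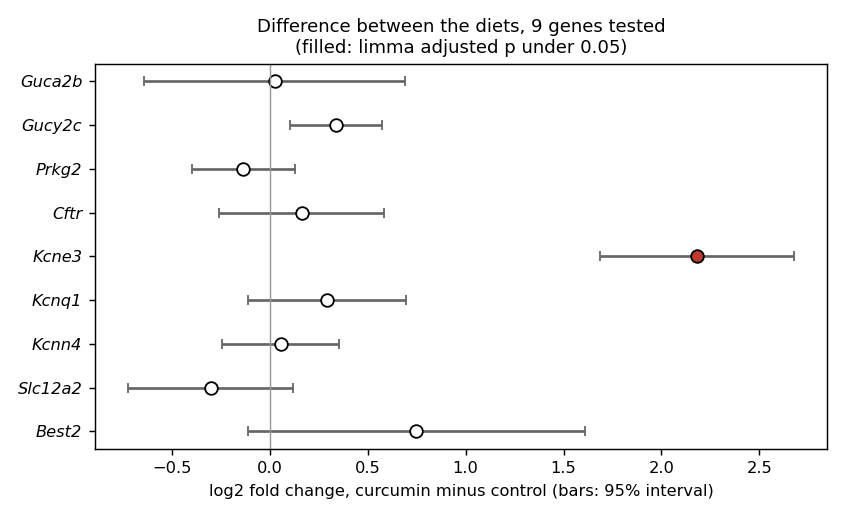
Log2 fold change of curcumin over control mice (horizontal axis) with its 95% interval for the 9 genes tested, with limma adjusted p under 0.05 filled. Kcne3, at 2.18, is the one filled point, and the interval of Gucy2c, 0.10 to 0.57, also lies above 0.

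Kcne3 encodes a single-pass regulatory subunit that joins the pore protein Kcnq1 in intestinal epithelium and keeps this basolateral potassium channel open at resting voltage. Its log2 ratios were 2.25, 2.68, 1.85 and 2.61 in curcumin mice, against 0.56, 0.29, -0.29 and 0.11 in control mice. The groups were far apart, with every curcumin mouse well above the reference and the control mice around it. The means were 2.35 ± 0.38 in curcumin mice and 0.17 ± 0.36 in control mice (SD, n = 4 each), a 4.53-fold difference (log2 fold change 2.18, SE 0.22, limma adjusted p = 0.0018, 95% interval 1.68 to 2.68). By size of increase Kcne3 ranked 7 of the 17116 named genes tested. In whole colon RNA, more cells that express the gene and more RNA per cell cannot be told apart.

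The 2 Kcne3 probes, features 15746 and 22378, gave differences of similar size. Feature 15746 read 2.12, 2.52, 1.81 and 2.45 in curcumin mice, against 0.55, 0.42, -0.24 and 0.11 in control mice, with a log2 fold change of 2.01 (SE 0.20, limma adjusted p = 0.00169). Feature 22378 read 2.38, 2.85, 1.89 and 2.77 in curcumin mice, against 0.56, 0.16, -0.35 and 0.11 in control mice, with a log2 fold change of 2.35 (SE 0.24, limma adjusted p = 0.00172). Both probes rank the mice in the same order within each group. Within the first run of slides the Kcne3 difference was 2.30 (SE 0.24, limma adjusted p = 0.02). It passed the threshold in each of 19 alternative analyses.

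Kcnq1 encodes the pore of the channel that Kcne3 regulates. Kcnq1 log2 ratios were 0.13, 0.40, 0.40 and 0.23 in curcumin mice, against -0.34, -0.03, 0.56 and -0.19 in control mice. Control mouse 3 lay above all curcumin mice and the other control mice below them. This gave a log2 fold change of 0.29 (SE 0.18, limma adjusted p = 0.449, 95% interval -0.11 to 0.70). Without control mouse 3 it was 0.48 (SE 0.11, limma adjusted p = 0.0403), past the threshold.

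The subunit and the pore were also set against each other within each array. Kcne3 minus Kcnq1 was 2.12, 2.29, 1.45 and 2.38 in curcumin mice, against 0.90, 0.33, -0.85 and 0.30 in control mice. No curcumin mouse came as low as the highest control mouse. The mean difference between the groups was 1.89 (two-sided exact permutation p = 0.0286, the smallest that the 70 splits allow), a comparison chosen with the rise of Kcne3 known. It measures an unequal difference between the diets, not the amount of either RNA.

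Kcnn4 encodes the calcium-activated potassium channel of the basolateral and apical membranes, the second potassium exit used in secretion. Kcnn4 had log2 ratios of 0.25, 0.38, 0.62 and 0.70 in curcumin mice, against 0.64, 0.56, 0.20 and 0.34 in control mice. Both groups covered nearly the same range. The log2 fold change was 0.05 (SE 0.13, limma adjusted p = 0.879, 95% interval -0.24 to 0.35), and within the first run of slides it was -0.12 (SE 0.14, limma adjusted p = 0.815).

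Slc12a2, on chromosome 18, encodes the basolateral sodium-potassium-chloride cotransporter that loads the cell with chloride. Its log2 ratios were 0.32, 0.24, 0.61 and 0.06 in curcumin mice, against 0.36, 0.72, 1.09 and 0.27 in control mice. The groups overlapped, with the highest value in control mouse 3 and the lowest in curcumin mouse 4. Curcumin over control gave a log2 fold change of -0.30 (SE 0.19, limma adjusted p = 0.449, 95% interval -0.72 to 0.12). It stayed below 0 in each of 19 alternative analyses, at -0.41 to -0.14, and passed the threshold in none of them, with limma adjusted p from 0.193 to 0.694.

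Best2 encodes bestrophin 2, an anion channel that in mouse colon is known from goblet cells, where it carries bicarbonate. Best2 had log2 ratios of 0.68, 1.78, 1.06 and 1.35 in curcumin mice, against -0.13, 0.27, 1.66 and 0.08 in control mice. Control mouse 3 reached the level of the curcumin mice and the other control mice lay below them. The log2 fold change was 0.75 (SE 0.38, limma adjusted p = 0.348, 95% interval -0.11 to 1.61). Without control mouse 3 it was 1.14 (SE 0.24, limma adjusted p = 0.0289), and 3 members then passed, Best2, Kcnq1 and Kcne3. The goblet cell list, of which Muc2 and Spink4 alone could be tested and neither passed, had array medians of -0.35 to 0.86 in curcumin mice and -0.81 to 0.69 in control mice, with control mouse 3 the highest control. The part of goblet cell content in the Best2 values was not tested.

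Control mouse 3 stood at an end of the control range for 8 of the 9 members, as the highest control for 4 of them and the lowest for the other 4. Its leukocyte list median, 0.78, was the lowest of the control mice, its T cell list median of 0.18 likewise, and its smooth muscle list median, 0.89, the highest of the control mice. Its neutrophil and macrophage list medians, 2.67 and 1.59, lay inside the range of the other control mice. The colonocyte list median of this mouse, -0.53, was the lowest of the control mice. Its general epithelial and stromal list medians, 0.07 and -0.06, were the highest of the control mice.

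**Figure D3:**
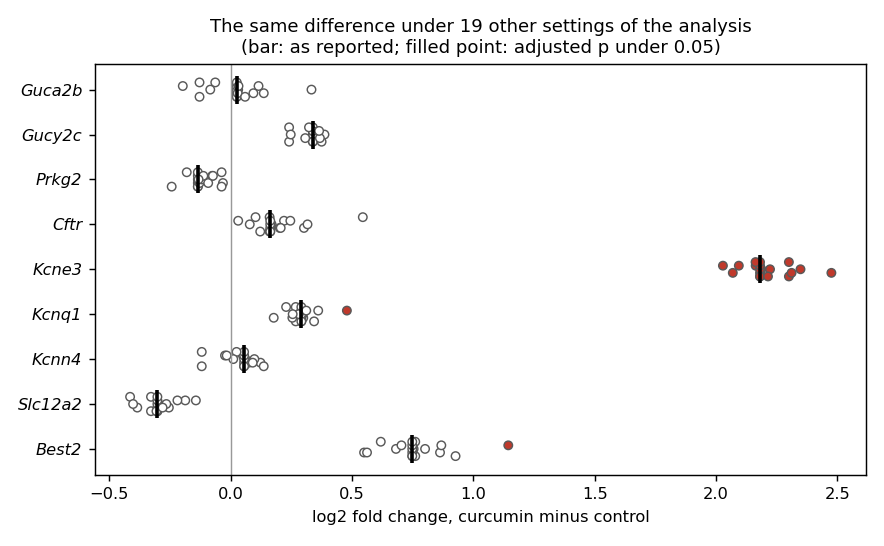
Log2 fold change of curcumin over control mice (horizontal axis) of each tested gene as reported (black bar) and under 19 alternative analyses (points), with limma adjusted p under 0.05 filled. Kcne3 stays between 2.03 and 2.48 and is filled throughout, whereas Kcnq1 and Best2 each have 1 filled point, the analysis without control mouse 3.

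The rise of Kcne3 coincided with differences in cell type markers. Among markers of mature colonocytes, the absorptive surface cells, 3 of 6 tested passed with higher values in curcumin mice (limma adjusted p under 0.05). None passed with lower values, and all 6 estimates were above 0. Array medians of this list were 0.27 to 1.06 in curcumin mice and -0.53 to -0.27 in control mice. Of the general epithelial markers 1 of 4 tested passed with higher values, and all 4 estimates were above 0. Array medians there were 0.16 to 1.04 in curcumin mice and -0.16 to 0.07 in control mice. Over all 23814 genes and unnamed features tested, 2.0% passed with higher and 2.54% with lower values. Log2 fold changes in the colonocyte list ranged from 0.27 for Cdhr5 to 2.41 for Car4, a membrane-bound carbonic anhydrase, with Slc26a3 at 2.17, so single colonocyte markers differed by as much as Kcne3. Those of the general epithelial list ranged from 0.32 for Cdh1 to 0.85 for Elf3. In that second list 8 of 11 features held a shared log ratio on at least 1 array, so these medians rest on few genes.

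Immune and stromal markers ran the other way. Of the neutrophil markers 3 of 5 passed with lower values in curcumin mice (limma adjusted p under 0.05). Array medians of this list were -0.19 to 0.42 in curcumin mice and 1.72 to 2.85 in control mice. S100a8 is among the 3, and the assumed direction of the ratio was read from it. The direction of this list is therefore not an independent result. Of the macrophage markers 3 of 5 passed with lower values, with array medians of 0.28 to 0.82 in curcumin mice and 1.35 to 1.91 in control mice. Likewise 2 of 5 leukocyte markers, 2 of 6 T cell markers and 3 of 5 stromal markers passed with lower values. Over everything tested, 2.54% did. No tested marker of the neutrophil, macrophage, leukocyte, T cell and stromal lists had an estimate above 0. The leukocyte medians were 0.31 to 0.73 in curcumin mice and 0.78 to 1.60 in control mice, those of the T cell list 0.13 to 0.56 in curcumin mice and 0.18 to 1.10 in control mice, and those of the stromal list -0.70 to -0.51 in curcumin mice and -0.53 to -0.06 in control mice. Of 8 crypt and cycling markers 1, Rrm2, passed with lower values (-0.75, SE 0.13, limma adjusted p = 0.0173). This list was mixed, with 2 of the 8 estimates above 0. At an unadjusted limma p under 0.05, 1 of its markers was higher and 2 were lower. No smooth muscle marker of 5 passed (limma adjusted p under 0.05), and 1 was higher at an unadjusted p under 0.05. How much of the Kcne3 difference goes with these shifts in markers was not tested.

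**Figure D4:**
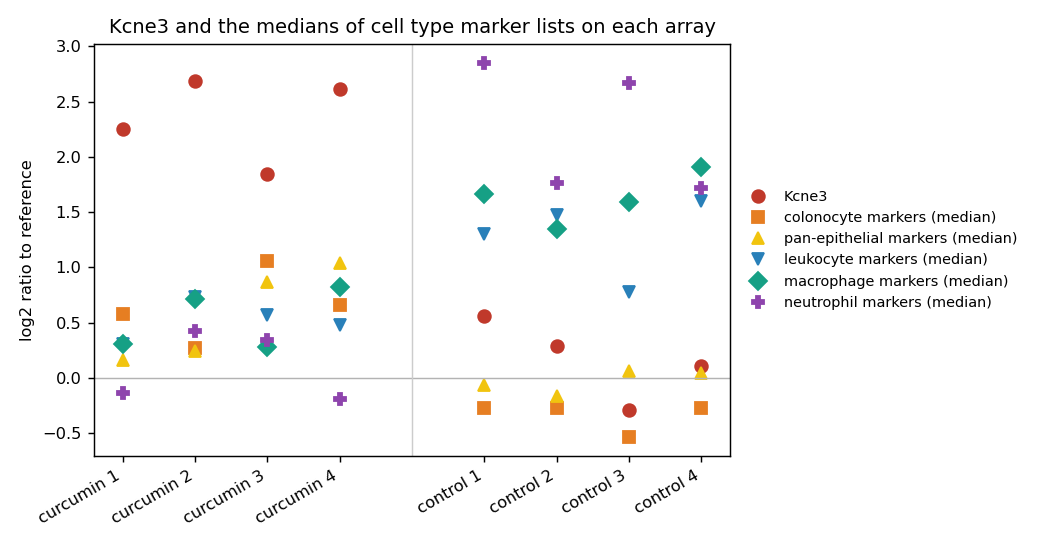
Log2 ratio to the reference (vertical axis) of Kcne3 and the median of 5 marker lists on each array, curcumin mice on the left and control mice on the right. Kcne3 and the colonocyte median are higher on every curcumin array than on any control array, and the leukocyte, macrophage and neutrophil medians are lower.

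The named genes most like Kcne3 across the 8 arrays were found by the root mean square difference of log2 ratios, each gene centred on its own mean, among 16003 genes with values on all arrays. They were Nxpe5 (0.208), a neurexophilin and PC-esterase domain family member, Acer1 (0.252), an alkaline ceramidase, and Slc26a3 (0.255), the chloride-bicarbonate exchanger of surface colonocytes. Nxpe5 had a mean log2 ratio of 1.69 ± 0.30 in curcumin mice and -0.23 ± 0.19 in control mice (SD, n = 4 each). Slc26a3, a gene of chloride absorption, had 1.82 ± 0.41 in curcumin mice and -0.35 ± 0.29 in control mice (SD, n = 4 each). Since likeness to Kcne3 chose them, their difference between the diets is a description.

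Beyond the members, 35 further genes of epithelial fluid secretion were listed, of which 33 were on the array and 30 were tested. Of these 4 were higher in curcumin mice, none was lower and 26 did not pass (limma adjusted p under 0.05, with 12 higher and 3 lower at an unadjusted p under 0.05). Of all 23814 tested, 476 were higher and 606 lower, with 1754 higher and 2598 lower at an unadjusted limma p under 0.05. The list's median log2 fold change was 0.18, with 21 of 30 above 0, against 10485 of 23814 over everything tested. Ano1, a calcium-activated chloride channel also known from the pacemaker cells of the gut wall, read -0.07, 0.26, 0.41 and 0.80 in curcumin mice, against -1.43, -0.77, -0.69 and -1.63 in control mice. The control mice were all well below the reference and the curcumin mice at or above it (log2 fold change 1.48, SE 0.25, limma adjusted p = 0.0127). Clcn2, a voltage-gated chloride channel of the epithelium, read 0.42 to 1.29 in curcumin mice and -0.10 to 0.02 in control mice (0.80, SE 0.17, limma adjusted p = 0.0294).

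Myo1a, the brush border myosin that carries membrane proteins to the apical surface, read -0.10, -0.26, 0.03 and 0.16 in curcumin mice, against -0.93, -0.86, -0.55 and -0.88 in control mice, with no overlap (log2 fold change 0.76, SE 0.12, limma adjusted p = 0.00903). Prkacb, a catalytic subunit of the cyclic AMP-dependent kinase that opens CFTR, read 0.68, 0.84, 0.67 and 1.12 in curcumin mice, against 0.09, 0.20, 0.51 and 0.21 in control mice (0.57, SE 0.13, limma adjusted p = 0.0365). Within the first run of slides the estimates were 1.22 for Ano1, 0.64 for Clcn2, 0.63 for Myo1a and 0.51 for Prkacb, and none of the 30 genes passed with these 6 arrays (limma, 8 at an unadjusted p under 0.05). Over everything tested with these arrays, 170 of 22868 passed.

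Among the secretion genes that did not pass, 5 are named here after their values were seen. Prkg1, the soluble cyclic GMP-dependent kinase, had a log2 fold change of -0.02 (SE 0.09, limma adjusted p = 0.941), and Pde5a, a phosphodiesterase that breaks down cyclic GMP, had 0.17 (SE 0.08, limma adjusted p = 0.329). Averaging only probes with values on all 8 arrays gave Pde5a 0.39 (limma adjusted p = 0.0386). Pdzd3, a scaffold protein that binds guanylyl cyclase C, had 0.55 (SE 0.16, limma adjusted p = 0.0889), and it passed after quantile normalization, with array weights and without control mouse 2 (limma adjusted p = 0.045, 0.0395 and 0.0395). Kcnk5, a background potassium channel, had 0.54 (SE 0.14, limma adjusted p = 0.0682), and 0.84 (limma adjusted p = 0.00817) with only probes that have values on all 8 arrays. With array weights Kcnk5 passed as well (0.59, limma adjusted p = 0.0498). Within the first run of slides Pde5a was at 0.26, Pdzd3 at 0.43 and Kcnk5 at 0.42. None of them passed there (limma adjusted p = 0.304, 0.414 and 0.361). Slc9a3r1, a scaffold of CFTR at the apical membrane, had the largest estimate of those that missed the threshold, 1.18 (SE 0.34, limma adjusted p = 0.0872). It read -0.67, -0.77, 0.71 and 0.55 in curcumin mice, so the curcumin mice themselves split by the run of slides, and within the first run it was 0.50 (SE 0.15). Slc9a3r1 passed without curcumin mouse 2 (1.42, limma adjusted p = 0.0495).

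**Figure D5:**
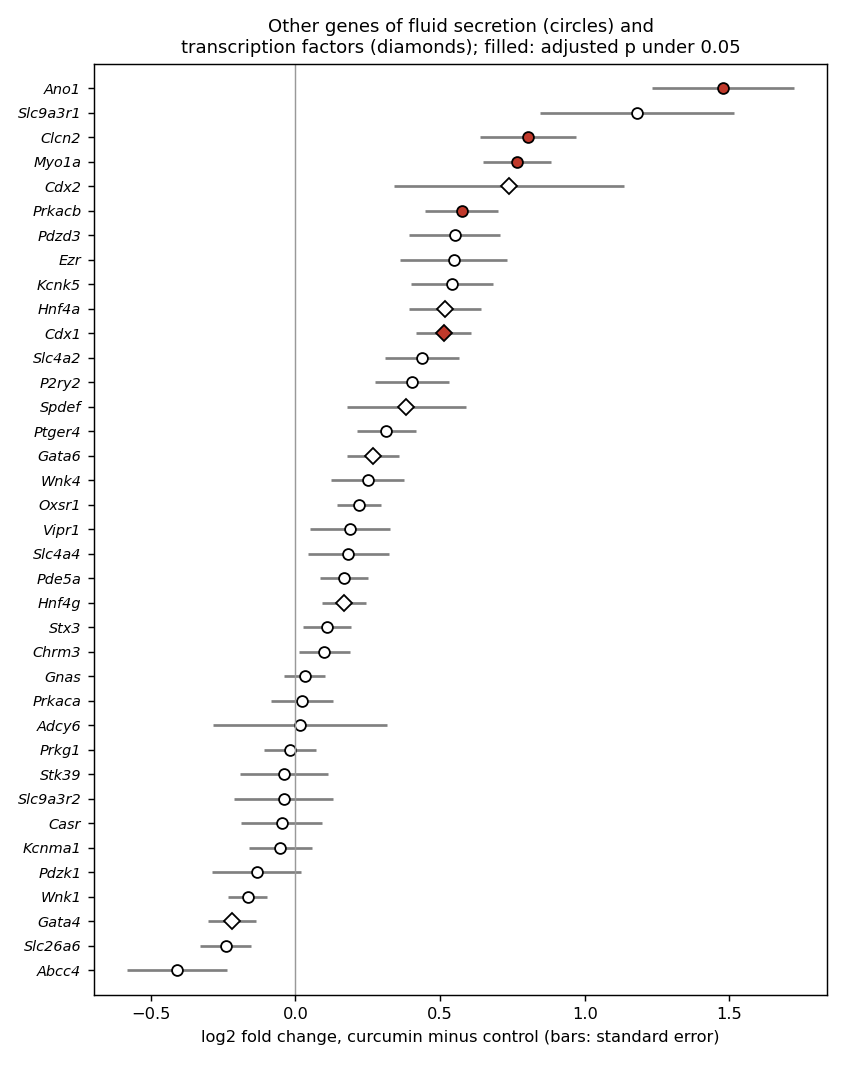
Log2 fold change of curcumin over control mice (horizontal axis) with its standard error for 30 further genes of fluid secretion (circles) and 7 transcription factors (diamonds), with limma adjusted p under 0.05 filled. The filled points are Ano1, Clcn2, Myo1a, Prkacb and Cdx1, all above 0.

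Of 10 intestinal transcription factors listed, the families of the motifs above among them, 8 were on the array and 7 were tested, and 1 passed. Cdx1, a homeobox factor of intestinal epithelium, read 0.89, 0.95, 0.85 and 1.23 in curcumin mice, against 0.49, 0.36, 0.51 and 0.50 in control mice (log2 fold change 0.51, SE 0.10, limma adjusted p = 0.0202). All curcumin mice were above all control mice. Hnf4a, a nuclear receptor of enterocytes, had an estimate of 0.52 (SE 0.12, limma adjusted p = 0.052), Gata6 one of 0.27 (SE 0.09, limma adjusted p = 0.141) and Gata4 one of -0.22 (SE 0.08, limma adjusted p = 0.192). With only probes that have values on all 8 arrays, Hnf4a and Gata6 passed as well (0.52 and 0.37, limma adjusted p = 0.0472 and 0.0329). Hnf4a also passed where each gene tested had to have values on all 8 arrays (limma adjusted p = 0.0491). Within the first run of slides Cdx1 was at 0.45 (SE 0.09, limma adjusted p = 0.0901) and did not pass. Hnf4a and Gata6 were there at 0.34 and 0.19 and did not pass either (limma adjusted p = 0.33 and 0.468).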

How the data were processed

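RNA from 8 colons, 4 of curcumin and 4 of control mice, was measured on 8 two-colour Agilent arrays. The authors deposited 1 log2 ratio per feature and array. The submitters' processing notes name limma without a version, and the normalization, the background correction and the direction of the ratio are not given in the sources used here. Array medians of the 44290 features were -0.0201 to -0.0092, and 11.4% to 23.8% of values were missing. The platform annotation gives 32042 features 1 symbol, 47 several and 12201 none, and 31906 of the named features matched RefSeq genes, with no symbol changed.

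Values equal to an array's most frequent log ratio were set to missing. Probes of a gene were averaged per array, and features without a single symbol were kept alone. Genes and unnamed features with at least 3 values per group (23814) were tested in R 4.3.3 by the linear models and moderated statistics of limma 3.58.1 (two-sided, Benjamini-Hochberg over all of them, threshold 0.05), and single probes (33556) likewise. The median SE of a log2 difference was 0.107. Labels call the arrays biological replicates, so p-values measure the spread between the mice picked for each group. Because the picking went by injury score, this is not the spread among all mice on a diet. The fit was tested on simulated data. Files were read and drawn with the data.table package (version 1.17.8), Python 3.11.15, pandas 2.3.3 and matplotlib 3.10.9. Alternatives kept the shared values, changed normalization, weights, filters and probe averaging, used slide run or replicate number as a block, or left out each array.

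All members are named, with the secretion and transcription factor genes that passed (up to 4 by p where fewer passed), the 3 genes most like each member that passed, Apoa1 and S100a8. Further secretion genes and markers named in the text (Prkg1, Pde5a, Pdzd3, Slc9a3r1, Kcnk5, Car4, Rrm2 and the epithelial and goblet markers) lie outside this rule and were picked with their values in view. The members, the pathway list, the transcription factors and the marker lists were chosen with earlier results of these data known. The kidney list, checked with the liver list, had array medians of -2.73 to -2.44 in curcumin mice and -2.63 to -1.93 in control mice. Same-numbered arrays deviated together at over 0.1 in 2 of 4 pairs only, so the numbers were not taken as pairs.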

Additional observations from a re-analysis of the deposited data

Results flagged for a closer look

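Gucy2c, the receptor gene, stood out for 1 curcumin mouse: curcumin mouse 3 had a log2 ratio of 0.55, whereas the other curcumin mice had 0.16 to 0.19, so that the gap to the nearest of them was 0.92 of the group's whole range (Dixon's criterion). Chance alone marks a small share of such groups of 4, and 9 members in both groups were examined. Without that mouse the Gucy2c difference was 0.25 (SE 0.08, limma adjusted p = 0.177).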

How the results depend on the processing

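Kcne3 passed under every alternative run (log2 fold change 2.03 to 2.48, limma adjusted p 0.000811 to 0.02). Among the single-gene values, 160 kept direction and side of the threshold, 9 reversed and 2 came to pass. The 2 were Best2 (1.14) and Kcnq1 (0.48), both without control mouse 3, so that members called ran from 1 to 3 over the fits that left out 1 mouse. The reversals were small: Guca2b at -0.13 and Kcnn4 at -0.12, each with the slide run as a block and within the first run alone. The later run holds no control mouse, so these settings must give the same estimate. They are counted separately among the reversals but are not separate checks of direction. Leaving out 1 mouse gave -0.20 to 0.33 for Guca2b, below 0 without control 3 (-0.20), control 4 (-0.06) or curcumin 3 (-0.08), and -0.02 to 0.14 for Kcnn4, below 0 without control 3 (-0.024) or curcumin 4 (-0.017). Cftr was 0.54 where the probe with values on all arrays was used alone, and did not pass. Genes and unnamed features called, 1082 as reported, became 1677 with array weights, 317 with the slide run as a block, 170 within the first run alone and 484 to 1311 leaving out 1 mouse. They fell below 1082 by more than 1.5 times without control 1 (655), control 4 (501), curcumin 1 (545) or curcumin 4 (484). Probes called, 1453 as reported, became 2374, 367 and 238 in the same 3 analyses and 601 to 1758 leaving out 1 mouse. Secretion genes called, 4 as reported, became 0 with the slide run as a block and 0 within the first run (limma, 7 and 8 of 30 at an unadjusted p under 0.05), 6 with array weights, 6 with only probes that have values on all 8 arrays, 5 after quantile normalization, and 2 to 4 leaving out 1 mouse, with 2 without control 4, curcumin 1 or curcumin 4. Ano1 and Myo1a passed in 17 of 19 alternatives, Cdx1 in 15, Clcn2 in 12 and Prkacb in 9. Kcne3 minus Kcnq1 was 2.03 within the first run (exact permutation p = 0.0667, the smallest that 6 arrays allow) and 1.55 to 2.13 leaving out 1 mouse. The cause of these changes was not tested, beside the fewer arrays in some of them. With the replicate number as a block, 650 genes and unnamed features and 968 probes passed, and no member's call changed. Same-numbered arrays deviated together at correlations of -0.03 to 0.20, and 2 of 4 pairs lay over 0.1. Guca2a minus Guca2b and Guca2a minus Gucy2c gave no value, since no curcumin value of Guca2a was left, and their alternatives were not run. The number of arrays, 4 per group, limits all of these values, and signal over background could not be judged.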
